A study of Mus musculus with 4 samples.

Results

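The 39 genes described here encode the junctions of the testis, among them those of the blood-testis barrier, and were taken by name from a list of junction genes. All 39 were found among the 22609 genes of the count table, as 21 tight junction genes, 5 gap junction genes, 10 adherens junction genes and 3 genes of the ectoplasmic specialisation. Polyadenylated RNA of whole mouse testes on postnatal day 3 was counted per gene in 4 libraries, on a mainly C57BL/6J background. In 2 libraries the receptor TR_alpha_1 was labelled dominant-negative, and in the other 2 it was labelled wild-type. Animals of both groups came from crosses of AmhCre mice, which express Cre recombinase in Sertoli cells, with heterozygous carriers of the TRαAMI allele of Thra, the gene of thyroid hormone receptor alpha. The series' design text limits the receptor's disruption to Sertoli cells, the somatic cells that enclose the germ cells of the tubule. The labels leave unsaid whether wild-type animals carried AmhCre and whether the libraries are from different animals, so p-values measure the spread between these samples, which may be technical.

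Sertoli cells of the mature testis are joined near the base of the tubule by tight junctions, gap junctions and actin-rich adherens junctions called ectoplasmic specialisations, which together form the blood-testis barrier. Claudins seal the space between the cells, while occludin, the junctional adhesion molecules and scaffold proteins such as zonula occludens and cingulin anchor the seal to actin. In mice the barrier closes only when the first meiotic germ cells appear, after the age sampled here. Thyroid hormone is known to limit the proliferation of immature Sertoli cells and to advance their maturation.

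Gene counts per library came to 11089136 and 15636832 in mutant replicates 1 and 2 and 13228903 and 10230512 in wild-type replicates 1 and 2. Levels are given as CPM, counts scaled to a common library total with trimmed mean of M values factors. Thra itself stood at 237 and 194 CPM in mutant and at 398 and 257 CPM in wild-type testes, and was not called (adjusted p = 0.0964 by edgeR); gene counts do not separate its engineered transcript from the normal one. All 24 Sertoli cell markers in the table, Sox9, Amh and Fshr among them, were detected, with summed levels of 8093 and 8125 CPM in mutant and 9238 and 10011 CPM in wild-type testes. Summed skeletal muscle markers stood at 2782 and 735 CPM in mutant replicates 1 and 2, against 27.3 CPM in each wild-type library. Germ cell markers summed to 522 and 446 CPM in mutant and 1205 and 844 CPM in wild-type testes, and macrophage markers to 418 and 592 CPM in mutant and 263 and 335 CPM in wild-type testes. Of 8 adipocyte markers 5 fell (Adipoq, Fabp4, Cidec, Cfd and Retn, with Cfd at 0 in both mutant libraries), and the 8 summed to 217 and 154 CPM in mutant and 291 and 252 CPM in wild-type testes. Leydig cell markers summed to 1375 and 1366 CPM in mutant and 1142 and 1244 CPM in wild-type testes. The part of these cell types in the junction gene values was not tested. In whole testes, fewer cells of a type and less RNA per cell cannot be told apart.

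Among the 39 junction genes, Cldn11 and F11r fell in mutant testes and Cldn15 rose, while the other 36 were not called. Cldn11, the claudin that builds the tight junction strands of Sertoli cells, fell 2.33-fold, F11r, a junctional adhesion molecule, fell 1.41-fold, and Cldn15, a pore-forming claudin best known from the gut, rose 1.83-fold. All 3 are tight junction genes, and none of the gap junction, adherens junction or ectoplasmic genes was called. A gene was called at an adjusted p below 0.05 in edgeR's quasi-likelihood test, fitted to all 14788 genes that passed a filter on low counts. All 39 members passed that filter. The test called 5.67% of those 14788 genes in either direction, 2.52% lower and 3.15% higher in mutant testes, so 3 calls among 39 is close to the share over all genes. The median log2 fold change, mutant minus wild type, was 0.02 over the members and -0.01 over all tested genes. The groups did not overlap in 20 of the 39 members, against 57.3% of all tested genes. Both mutant libraries lay above both wild-type libraries in 10 members, against 28.3% of all tested genes, and below them in the other 10, against 29.0%.

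**Figure D1:**
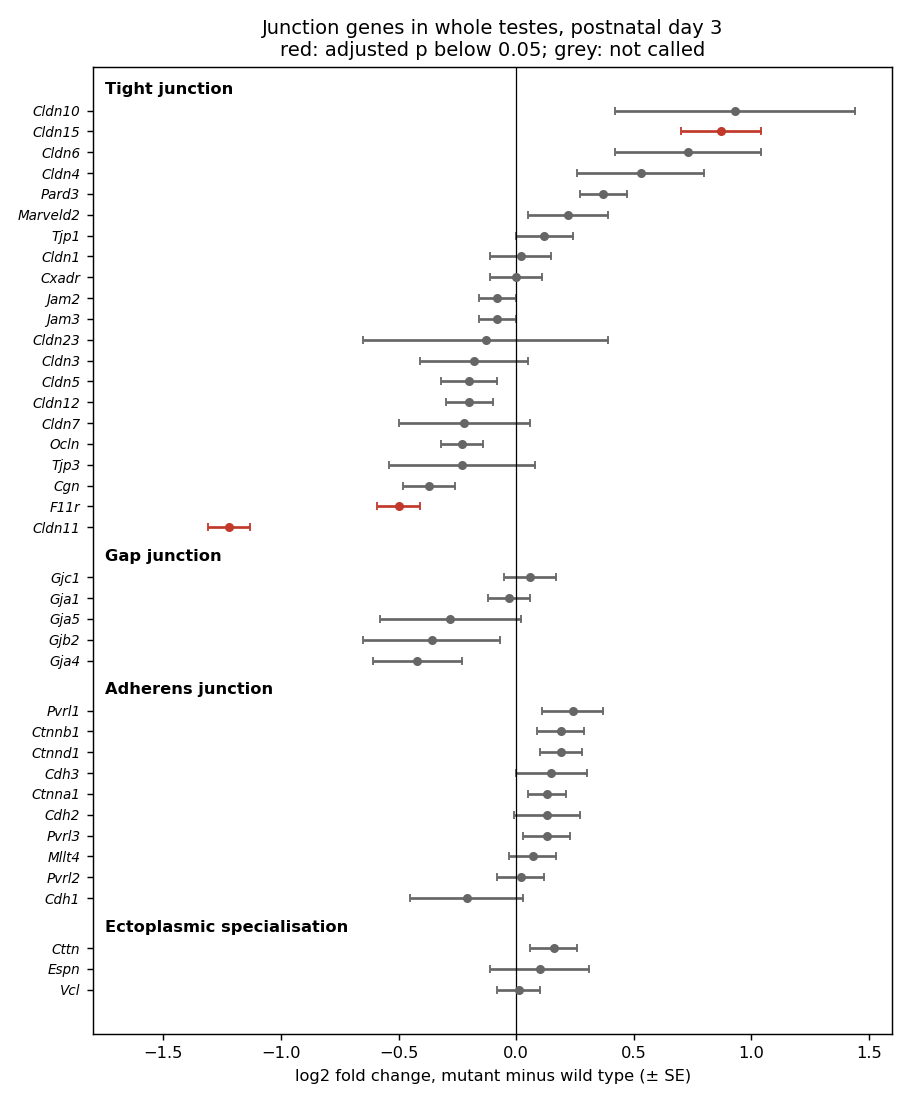
Log2 fold change of each of the 39 junction genes, mutant minus wild type, on the horizontal axis, with bars of 1 standard error from edgeR, ordered within 4 junction classes; red points were called and grey points were not. Cldn11 at -1.22 stands apart to the left, F11r is at -0.50 and Cldn15 at 0.87, while all gap, adherens and ectoplasmic genes lie between -0.42 and 0.24.

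The stretches of 250 bases before the start sites of the 3 called genes are shown because these are the members whose transcripts differed between the genotypes. They are RefSeq sequences on GRCm38.p6, 5′ to 3′ on the gene's strand, which is the plus strand in each: Cldn11 at chr3:31149670-31149919, F11r at chr1:171437311-171437560 and Cldn15 at chr5:136967619-136967868. Capitals mark CCAAT, or ATTGG where it lies on the other strand.
Cldn11: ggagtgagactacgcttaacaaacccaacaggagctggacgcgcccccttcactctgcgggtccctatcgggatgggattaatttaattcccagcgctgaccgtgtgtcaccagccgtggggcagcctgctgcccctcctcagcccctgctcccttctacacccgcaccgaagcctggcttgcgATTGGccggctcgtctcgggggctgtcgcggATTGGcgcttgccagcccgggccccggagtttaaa
F11r: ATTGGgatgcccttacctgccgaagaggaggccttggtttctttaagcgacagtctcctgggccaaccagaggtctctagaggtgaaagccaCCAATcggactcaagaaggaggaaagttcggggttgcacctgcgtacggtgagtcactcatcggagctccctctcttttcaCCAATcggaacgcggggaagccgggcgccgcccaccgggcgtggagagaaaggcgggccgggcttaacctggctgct
Cldn15: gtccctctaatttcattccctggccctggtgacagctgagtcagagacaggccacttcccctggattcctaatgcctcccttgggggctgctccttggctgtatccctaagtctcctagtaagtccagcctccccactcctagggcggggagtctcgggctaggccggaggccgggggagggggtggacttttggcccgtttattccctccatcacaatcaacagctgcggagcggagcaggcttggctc
The CCAAT motif was found 2 times before Cldn11, 3 times before F11r and not before Cldn15. AGGTCA, the half-site at which thyroid hormone receptors bind DNA, and GATAA, the core motif of GATA factors, were searched for on both strands and matched in none of the 3 windows. A start-site window was at hand for 28 of the 39 members. Of these 28, the members with at least 1 match numbered 6 for AGGTCA, 7 for GATAA and 13 for CCAAT. Per window, AGGTCA stood in 17.5% of the 40 windows of these members, against 14.0% of all 32851 windows of the same length, CCAAT in 37.5% against 33.8%, and GATAA in 8 of the 40 windows against 22.6% of all. The members with AGGTCA were Cldn4, Cldn7, Ctnnd1, Gjb2, Ocln and Tjp3, none of which was called.

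Cldn11 (ENSMUSG00000037625.6, chromosome 3, 31048868 to 31063246, plus strand, mm9) had 51.4 and 56.5 CPM in mutant libraries, against 126 CPM in each wild-type library. The groups lay far apart compared with the spread within either. The means were 54.0 ± 3.59 CPM in mutant and 126 ± 0.446 CPM in wild-type testes (SD, n = 2 each), on 1450 counts in mutant and 2963 in wild-type libraries, and the log2 fold change was -1.22 ± 0.09 (SE; adjusted p = 0.00236 by edgeR). Cldn11 was called in every one of the 14 other settings tried, among them the 4 that leave out 1 library, where the log2 fold change lay between -1.29 and -1.16. Set against the Sertoli cell markers of the same library, Cldn11 amounted to 6.35 and 6.95 CPM per 1000 CPM of summed markers in mutant testes and 13.6 and 12.6 in wild-type testes. Of those 24 markers, 5 fell, 1 rose and their median log2 fold change was -0.04. The sum is weighted toward abundant markers, such as Clu at -0.32 (not called), Aard at -1.01 and Inha at -0.04, and does not measure the number of Sertoli cells.

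Cldn11 made up a smaller part of the member claudin transcripts in mutant than in wild-type testes. Per kilobase of annotated exon, which allows genes of different length to be compared, Cldn11 supplied 25.6% and 22.6% of the summed level of the 11 member claudins in mutant replicates 1 and 2, against 42.1% and 43.9% in wild-type replicates 1 and 2. It remained the most abundant of the 11 in all 4 libraries. The summed level of the 11 was 109 and 136 CPM per kilobase in mutant and 162 and 156 CPM per kilobase in wild-type testes. The next largest shares among the 11 belonged to Cldn5, the claudin of blood vessel endothelium, at 16.6% and 13.2% in mutant and 13.1% and 12.9% in wild-type testes, and to Cldn1, a claudin of the epidermal barrier, at 13.8% and 14.0% in mutant and 10.3% and 10.9% in wild-type testes. Since these are shares of a sum that holds Cldn11, a rise of the other shares does not show a rise of those genes.

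**Figure D2:**
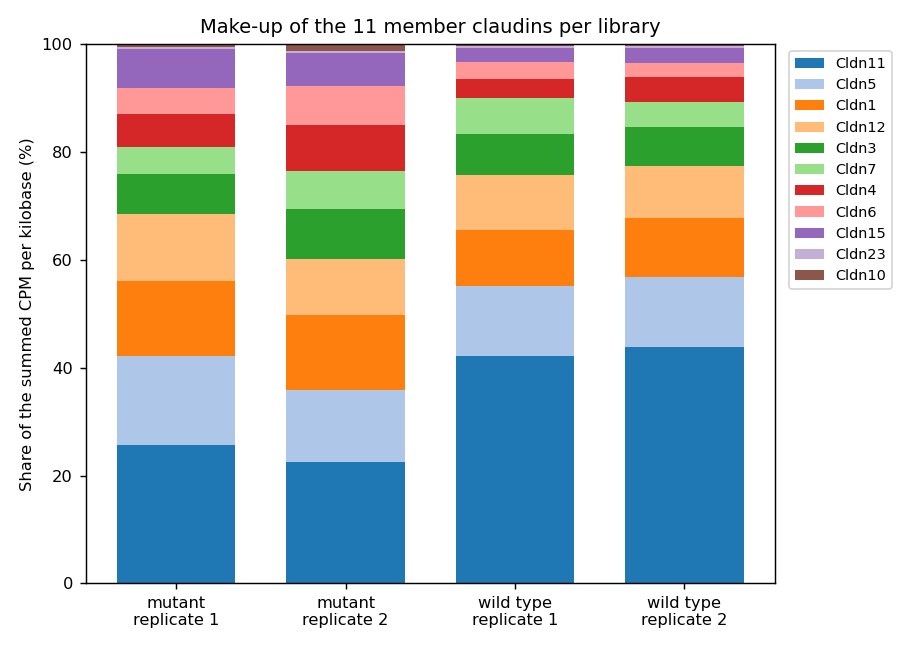
Share of each of the 11 member claudins in their summed CPM per kilobase, in percent, as 1 stacked bar per library. The lowest block, Cldn11, takes 25.6% and 22.6% in the mutant libraries and 42.1% and 43.9% in the wild-type libraries.

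F11r (ENSMUSG00000038235.4, chromosome 1, 173367666 to 173394734, plus strand), which encodes junctional adhesion molecule A, had 199.7 and 186 CPM in mutant and 263 and 283 CPM in wild-type testes. Both mutant libraries lay below both wild-type libraries. The means were 193 ± 9.43 CPM in mutant and 273 ± 13.9 CPM in wild-type testes (SD, n = 2 each), and the log2 fold change was -0.50 ± 0.09 (adjusted p = 0.0221 by edgeR). Leaving out either wild-type library ended the call, as it did for most calls over all tested genes. The log2 fold change was then -0.55 without replicate 1 and -0.45 without replicate 2. Its relatives Jam2 and Jam3, whose proteins also join Sertoli cells to germ cells, were not called. Jam2 had 200.1 and 191 CPM in mutant against 203 and 209.6 CPM in wild-type testes, a log2 fold change of -0.08 ± 0.08. Jam3 had 103 and 98.9 CPM in mutant and 109 and 105 CPM in wild-type testes, likewise -0.08 ± 0.08. Per kilobase, F11r made up 50.1% and 49.5% of the summed level of these 3 genes in mutant and 56.1% and 57.9% in wild-type testes. Against the Sertoli cell markers, F11r stood at 24.7 and 22.9 CPM per 1000 CPM in mutant and 28.5 and 28.2 in wild-type testes.

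Cldn15 (ENSMUSG00000001739.7, chromosome 5, 137442486 to 137451728, plus strand) had 17.0 and 17.4 CPM in mutant and 9.16 and 9.70 CPM in wild-type testes, so that the groups were well separated at a low level. The means were 17.2 ± 0.291 CPM in mutant and 9.43 ± 0.383 CPM in wild-type testes (SD, n = 2 each), and the log2 fold change was 0.87 ± 0.17 (adjusted p = 0.0302 by edgeR). This call too ended when either wild-type library was left out, as did most calls over all tested genes. The log2 fold change was then 0.83 without replicate 1 and 0.91 without replicate 2. Markers of ducts and of the surface epithelium were read beside it. Of 17 such markers, none of them at 0 in all libraries, 5 rose and 1 fell, and their summed level was 749 and 992 CPM in mutant and 748 and 718 CPM in wild-type testes. The 5 that rose were Krt19, Upk3b, Upk1b, Msln and Lrrn4. The 1 that fell was Cd9, with 93.1 and 105 CPM in mutant and 136 and 127 CPM in wild-type testes (adjusted p = 0.0455 by edgeR). The median log2 fold change of the 17, which pool markers of ducts and of the surface, was 0.05. The 5 that rose stood at 0.91 to 1.28 and Cd9 at -0.41, so the median does not speak for each part of the list. Upk3b, a marker of the mesothelium that covers the testis, had 162 and 209 CPM in mutant and 85.7 and 103 CPM in wild-type testes (adjusted p = 0.0127 by edgeR). The part of these cells in the Cldn15 value was not tested.

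**Figure D3:**
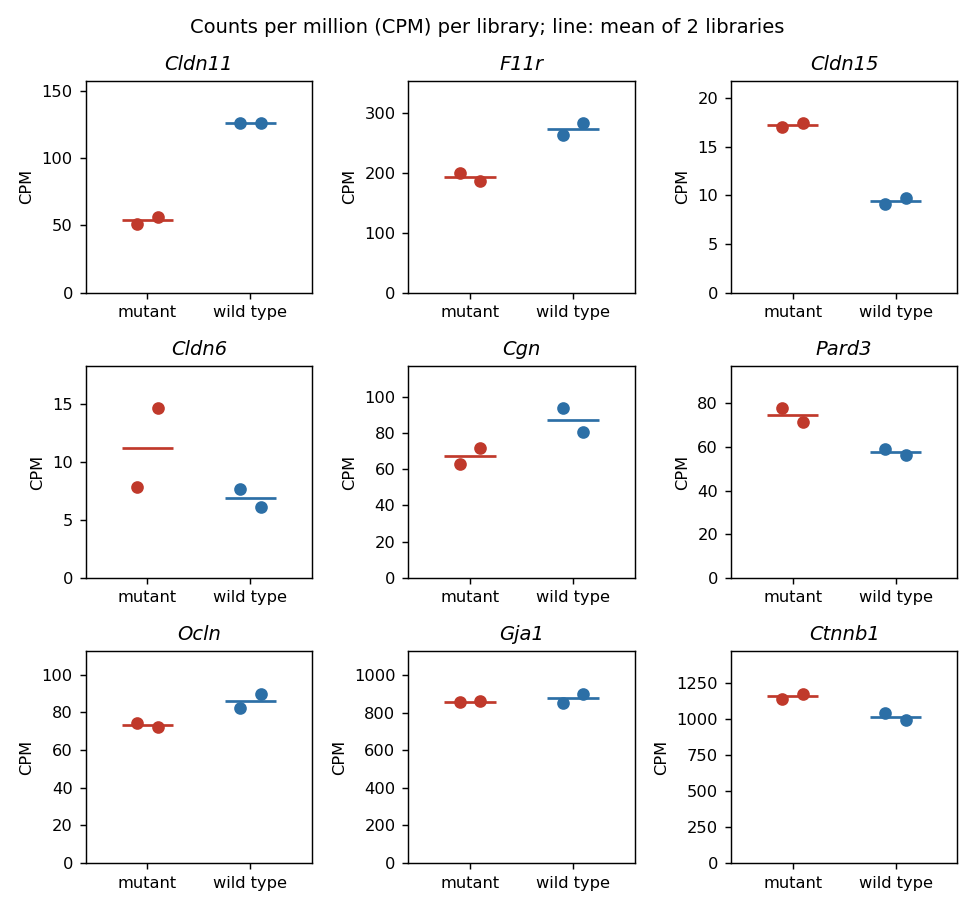
CPM of 9 junction genes in each library, with a line at the mean of 2 libraries, mutant to the left and wild type to the right, each vertical axis starting at 0. Cldn11 and F11r were lower in both mutant libraries, at 51.4 and 56.5 CPM and at 199.7 and 186 CPM, Cldn15 was higher at 17.0 and 17.4 CPM, and the Gja1 libraries overlap between 854 and 902 CPM.

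A further 4 tight junction genes had an unadjusted p below 0.05 without being called. In all, 7 of the 39 members passed that looser limit, against 25.5% of all tested genes. Cgn encodes cingulin, which links the junction to actin and myosin, and it had 62.9 and 71.4 CPM in mutant against 93.4 and 80.5 CPM in wild-type testes (log2 fold change -0.37 ± 0.11, adjusted p = 0.0862 by edgeR). An exon of Cgn overlaps BC021767 on the same strand, so reads there cannot be assigned to Cgn alone. Any of them counted as ambiguous were left out. Ocln, the gene of occludin, had 74.4 and 72.3 CPM in mutant and 82.1 and 89.9 CPM in wild-type testes (-0.23 ± 0.09, adjusted p = 0.172 by edgeR). In both genes the 2 mutant libraries lay below the wild-type ones. Pard3, a polarity protein that directs where tight junctions form, had 77.6 and 71.6 CPM in mutant and 59.0 and 56.5 CPM in wild-type testes (0.37 ± 0.10, adjusted p = 0.0634 by edgeR). Cldn6, a claudin of embryonic epithelia, had 7.83 and 14.6 CPM in mutant and 7.66 and 6.08 CPM in wild-type testes (0.73 ± 0.31, adjusted p = 0.191 by edgeR), and mutant replicate 1 lay next to the wild-type libraries.

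The genes of the other scaffold and membrane proteins of the tight junction were not called. Tjp1, the gene of the main zonula occludens scaffold, had 123 and 132 CPM in mutant and 132 and 104 CPM in wild-type testes, a log2 fold change of 0.12 ± 0.12 (adjusted p = 0.583 by edgeR). Cxadr, the adhesion molecule also used by coxsackieviruses and adenoviruses to enter cells, was at 79.8 and 98.2 CPM in mutant and 89.5 and 89.4 CPM in wild-type testes. Marveld2, which encodes tricellulin of the corners where 3 cells meet, was at 21.7 and 17.3 CPM in mutant and 16.7 and 16.5 CPM in wild-type testes (0.22 ± 0.17). Tjp3, a scaffold of epithelia, was at 3.00 and 5.30 CPM in mutant and 5.03 and 5.10 CPM in wild-type testes. Mutant replicate 1 was thus the lowest library for Cxadr and Tjp3, and the other mutant library the highest. Among the remaining claudins, Cldn1 stood at 0.02 ± 0.13, Cldn5 at -0.20 ± 0.12 and Cldn12 at -0.20 ± 0.10 on the log2 scale, none called.

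Several epithelial claudins differed more between the 2 mutant libraries than between the groups. Cldn10 had 1.55 and 4.40 CPM in mutant testes (replicates 1 and 2) and 1.58 and 1.76 CPM in wild-type testes. Cldn4 had 12.1 and 21.1 CPM in mutant and 10.4 and 13.1 CPM in wild-type testes. Cldn7 had 10.6 and 18.7 CPM in mutant and 20.6 and 14.0 CPM in wild-type testes. In these 3 genes mutant replicate 2 held the larger mutant value, and the groups overlapped. In all, 8 of the 39 members were more than 1.5-fold higher in mutant replicate 2 than in mutant replicate 1 (Cldn3, Cldn4, Cldn6, Cldn7, Cldn10, Cldn23, Tjp3 and Cdh1), against 4.29% of all tested genes, and none was that much lower, against 4.25%. The limit of 1.5-fold was chosen after the values were seen. Of the 17 duct and surface epithelium markers, 6 were also above it, among them Epcam and Krt18. Epcam had 63.9 and 103 CPM in mutant testes and 111 and 88.6 CPM in wild-type testes, and Krt18 had 60.9 and 107 CPM in mutant testes and 94.3 and 91.3 CPM in wild-type testes. The part of epithelial cells in these values was not tested. Without mutant replicate 1, the log2 fold changes of Cldn4, Cldn6 and Cldn10 were 0.85, 1.08 and 1.40, and without mutant replicate 2 they were 0.05, 0.17 and -0.10. Each of these fits keeps 1 mutant library and so holds no spread between mutant libraries.

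**Figure D4:**
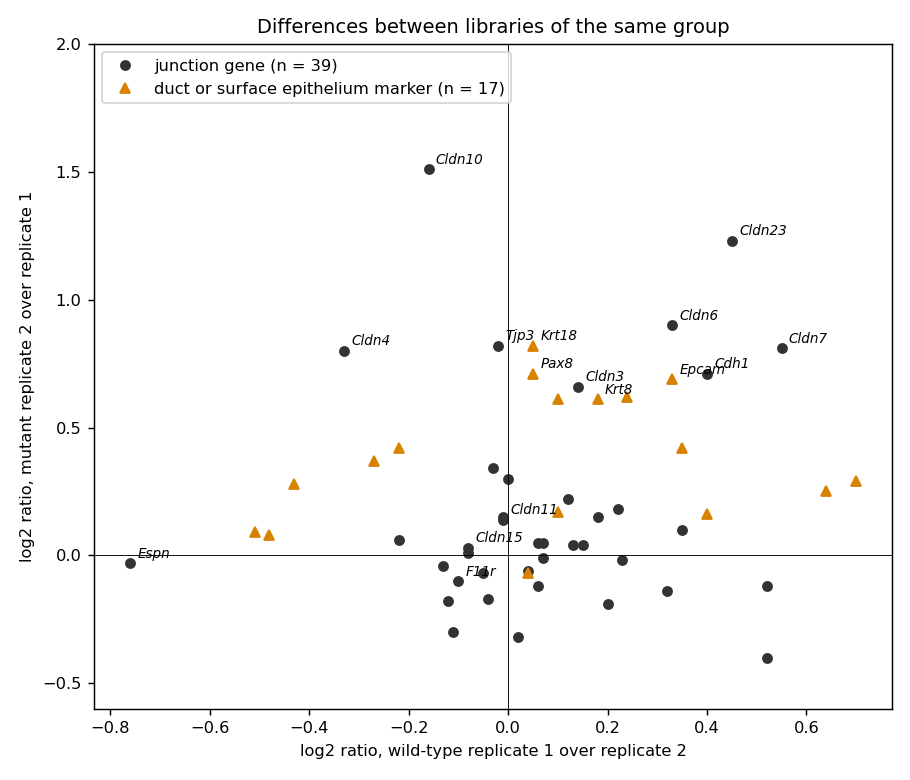
Log2 ratio of mutant replicate 2 over replicate 1 on the vertical axis against that of wild-type replicate 1 over replicate 2 on the horizontal axis, 1 point per gene, for the 39 junction genes (circles) and 17 duct or surface epithelium markers (triangles). The labelled epithelial claudins, Tjp3 and Cdh1 lie between 0.66 and 1.51 on the vertical axis, Epcam, Krt8, Krt18 and Pax8 between 0.61 and 0.82, while Cldn11, Cldn15 and F11r lie near 0 on both axes.

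Gap junctions pass ions and small molecules between cells, and none of the 5 gap junction genes was called. Gja1, whose connexin couples Sertoli cells to each other and to germ cells, had 855 and 861 CPM in mutant and 854 and 902 CPM in wild-type testes, a log2 fold change of -0.03 ± 0.09 (adjusted p = 0.856 by edgeR). Its groups overlapped, and its sign turned to 0.00 without wild-type replicate 2. Against the Sertoli cell markers, Gja1 stood at 106 CPM per 1000 CPM in each mutant library and at 92.5 and 90.1 in wild-type testes. The mutant libraries were higher on that scale because the marker sum was lower there, at 8093 and 8125 CPM against 9238 and 10011 CPM. The median log2 fold change of the 24 markers was -0.04. The ratio therefore does not show a rise of Gja1. Gja1 made up 92.8% and 93.5% of the summed CPM per kilobase of the 5 connexin genes in mutant and 92.3% and 93.0% in wild-type testes. Gjc1, a connexin of early heart and of vessels, was at 65.4 and 57.6 CPM in mutant and 56.5 and 61.2 CPM in wild-type testes (0.06 ± 0.11). Gja4 and Gja5, both connexins of the vessel wall, stood at -0.42 ± 0.19 and -0.28 ± 0.30, and Gjb2, a connexin of epithelia and the inner ear, at -0.36 ± 0.29. The 15 endothelial markers, all detected, summed to 956 and 961 CPM in mutant and 883 and 903 CPM in wild-type testes, and none of them was called.

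Adherens junction genes lay close together and near 0. Of the 10, none was called, 9 had a positive log2 fold change, and the range was -0.21 to 0.24 with a median of 0.13. Over all 14788 tested genes, 7273 had a positive one, and 7121 to 7566 under the 4 scalings. That count of 9 was the same under the 4 scalings tried, and was 6 to 10 with 1 library left out. Ctnnb1, the gene of beta-catenin, which binds the tails of cadherins and carries Wnt signals, had 1137 and 1175 CPM in mutant and 1039 and 992 CPM in wild-type testes (0.19 ± 0.10, adjusted p = 0.268 by edgeR). Exons of Ctnnb1 overlap Ulk4 on the opposite strand, whose reads cannot be told apart where counting ignored strand. The same holds for Cldn3 with Wbscr25, Tjp3 with Apba3, Gja5 with Gpr89, Mllt4 with Tcte2, Pvrl2 with Gm20512 and Vcl with Ap3m1. Ctnna1 and Ctnnd1, its partner catenins, stood at 0.13 ± 0.08 and 0.19 ± 0.09. Both mutant libraries were above both wild-type libraries in 5 of the 10 adherens junction genes, Ctnnb1, Ctnna1, Ctnnd1, Pvrl1 and Pvrl3, against 28.3% of all tested genes, and the groups overlapped in the other 5.

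The 3 member cadherins did not separate the groups, unlike Cdh11, which was not a member and is described below. Cdh3, the placental cadherin gene, had 136 and 125 CPM in mutant and 138 and 96.8 CPM in wild-type testes. Cdh2, the neural cadherin of the barrier in the adult, had 33.9 and 29.7 CPM in mutant and 30.9 and 27.0 CPM in wild-type testes (0.13 ± 0.14, adjusted p = 0.599 by edgeR). Cdh1, the epithelial cadherin also found on spermatogonia, had 16.5 and 26.9 CPM in mutant and 28.8 and 21.9 CPM in wild-type testes. Mutant replicate 1 was again the lowest library for Cdh1. Per kilobase, Cdh3 made up 81.4% and 76.6% of the summed level of the 3 member cadherins in mutant and 77.4% and 74.9% in wild-type testes. That sum leaves out Cdh11 and Cdh5, which are not members and averaged more than Cdh3. Cdh11 averaged 67.9 CPM per kilobase in mutant and 41.3 in wild-type testes, and Cdh5 40.1 and 31.1. Cdh3 averaged 32.7 and 29.4.

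Nectins are the other adhesion molecules of the adherens junction, and afadin, encoded by Mllt4, ties them to actin. Pvrl2, the nectin that Sertoli cells contribute to their contact with spermatids, had 203 and 201 CPM in mutant and 216 and 184 CPM in wild-type testes, a log2 fold change of 0.02 ± 0.10. Its partner on the germ cell side, Pvrl3, stood at 0.13 ± 0.10, Pvrl1 at 0.24 ± 0.13 and Mllt4 at 0.07 ± 0.10, none called. Pvrl2 supplied 77.4% and 79.1% of the summed CPM per kilobase of the 3 nectins in mutant and 81.9% and 78.6% in wild-type testes.

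The 3 genes of the ectoplasmic specialisation were not called. Cttn, which encodes the actin-branching protein cortactin, had 303 and 317 CPM in mutant and 257 and 299 CPM in wild-type testes (0.16 ± 0.10, adjusted p = 0.344 by edgeR). Both mutant libraries lay above both wild-type libraries, although wild-type replicate 2 came close. Espn, which encodes the actin-bundling protein espin, had 47.7 and 46.7 CPM in mutant and 33.0 and 55.9 CPM in wild-type testes, so the wild-type libraries enclosed the mutant ones. Vcl, the gene of vinculin at the ends of actin filaments, had 201 and 206 CPM in mutant and 213 and 192 CPM in wild-type testes, a log2 fold change of 0.01 ± 0.09.

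Ordered by level per kilobase, the junction genes spanned a wide range with Gja1 at the top. Gja1 averaged 276 CPM per kilobase in mutant and 283 in wild-type testes, and Ctnnb1 followed at 227 in mutant and 199 in wild-type testes. Below them in mutant testes came Ctnna1, Cttn and F11r, at 75.1, 74.0 and 72.5 CPM per kilobase, neighbours whose libraries overlap or nearly meet. In wild-type testes the third place was held by F11r at 102, followed by Ctnna1 at 68.6 and Cldn11 at 68.4. Cldn11 was thus in place 12 of the 39 in mutant testes, at 29.3 CPM per kilobase, and in place 5 in wild-type testes. Cldn15 held place 25 in mutant and place 32 in wild-type testes. At the low end Tjp3, Gjb2, Gja5, Cldn10 and Cldn23 were all below 2 CPM per kilobase in each library, and Cldn23 rested on 26 counts in mutant and 25 in wild-type testes.

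**Figure D5:**
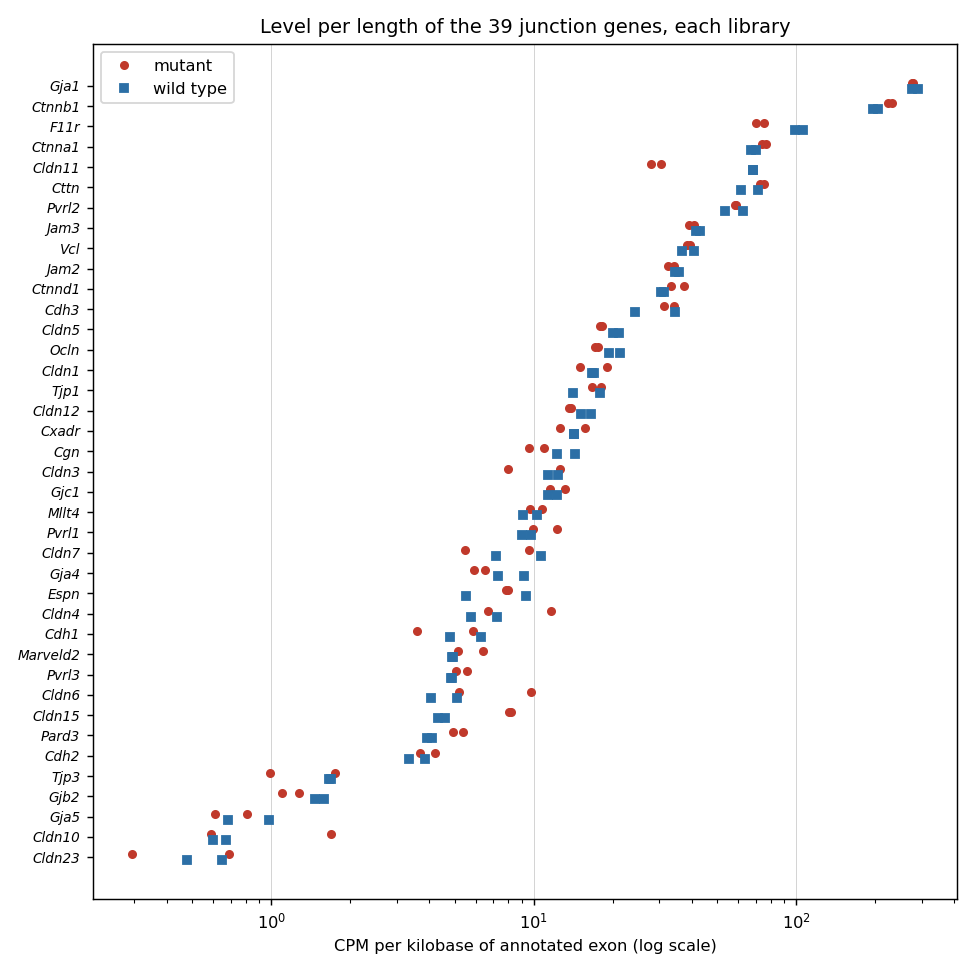
CPM per kilobase of annotated exon, on a log scale, of the 39 junction genes in each library (mutant as circles, wild type as squares), ordered by the wild-type mean. Cldn11 lies at 27.9 and 30.6 in the mutant libraries, against 68.2 and 68.5 in the wild-type libraries on this axis.

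In position, 3 pairs of members are neighbours within 100 kb on mm9. These are Cldn3 and Cldn4, 39.3 kb apart on chromosome 5, Ocln and Marveld2, 43.2 kb apart on chromosome 13, and Cdh3 and Cdh1, 46.4 kb apart on chromosome 8. In each pair the fitted log2 fold changes had opposite signs, with -0.18 for Cldn3 and 0.53 for Cldn4, -0.23 for Ocln and 0.22 for Marveld2, and 0.15 for Cdh3 and -0.21 for Cdh1. No gene of these pairs was called, and the difference between neighbours was not tested.

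Other junction genes, 97 in the table, had more upward than downward calls. They include 12 genes of desmosomes, a junction type outside the 4 classes above. Of these 12, 8 passed the filter and 1 was called higher. Of the 75 that passed the filter, 6 rose (3.15% of all tested genes did), 1 fell (2.52% of all) and 68 were not called, while 22 had too few counts. Their median log2 fold change was 0.15, against -0.01 over all tested genes. The list was chosen with earlier results of these data known. By limma voom 3 of its genes rose, and with no filter on low counts 3 rose. Cdh11, a cadherin of mesenchymal cells, rose 1.64-fold, with 289.7 and 283 CPM in mutant and 178 and 170.3 CPM in wild-type testes (adjusted p = 0.00616 by edgeR). It was called with any 1 library left out. Mpdz, a scaffold with many PDZ domains, had 74.5 and 71.2 CPM in mutant and 44.5 and 42.6 CPM in wild-type testes, and rose 1.67-fold (adjusted p = 0.00992 by edgeR). Amotl1, an angiomotin-like protein of junctions, had 139.6 and 128 CPM in mutant and 91.2 and 87.3 CPM in wild-type testes (1.49-fold, adjusted p = 0.0171 by edgeR). All of these were well separated between the groups.

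The other upward calls had larger adjusted p-values. Fscn1, an actin-bundling protein, had 176 and 146 CPM in mutant and 119 and 111 CPM in wild-type testes (adjusted p = 0.0414 by edgeR). Magi3, a scaffold of tight junctions, had 55.5 and 50.9 CPM in mutant testes, against 38.8 CPM in each wild-type library (adjusted p = 0.0480 by edgeR). Ppl, the desmosome protein periplakin, had 10.5 and 15.3 CPM in mutant and 6.23 and 4.80 CPM in wild-type testes (adjusted p = 0.0379 by edgeR). These 3 genes separated the groups, and Ppl rested on 354 counts in mutant and 132 in wild-type testes. Lsr, which recruits tricellulin to the corners between epithelial cells, was the only one called lower, at 147 and 154 CPM in mutant and 195 and 204 CPM in wild-type testes, a 1.33-fold fall (adjusted p = 0.0321 by edgeR). The most negative log2 fold change of the 75 was that of Cldn2, a pore-forming claudin of leaky epithelia that was named after its values were seen. It had 1.36 and 6.58 CPM in mutant and 13.5 and 9.90 CPM in wild-type testes (-1.46 ± 0.47), and was not called (adjusted p = 0.103 by edgeR). Without mutant replicate 2 Cldn2 stood at -3.11, and without mutant replicate 1 at -0.85. Each of these fits keeps 1 mutant library and so holds no spread between mutant libraries. The calls of Mpdz, Amotl1, Fscn1, Magi3, Ppl and Lsr were each lost without wild-type replicate 1, and also without wild-type replicate 2. Most calls over all tested genes were lost in these settings too. Lsr, Magi3 and Fscn1 were also not called without mutant replicate 1, nor was Ppl without mutant replicate 2. With all 4 libraries kept, Magi3 was not called by DESeq2 (adjusted p = 0.0658), by limma voom (adjusted p = 0.0573) or by edgeR with library size alone (adjusted p = 0.0505). Limma voom also left out Fscn1 (adjusted p = 0.0545) and Ppl (adjusted p = 0.0538). With no filter on low counts, edgeR called none of Magi3 (adjusted p = 0.0663), Fscn1 (adjusted p = 0.0616), Ppl (adjusted p = 0.0525) and Lsr (adjusted p = 0.0506).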

How the data were processed

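Per the labels' protocols, oligo-dT purified RNA was sequenced from 1 end in reads of 100 bases. The submitters' processing notes name CASAVA 1.8.1, TopHat 1.4.0, HTSeq, DESeq2 and build mm9, with no role given. The deposited table is handled as estimated counts because 5 of its lines below the genes hold percentages, but its gene values are whole numbers, so rounding changed nothing. No source used here gives the counting mode or whether strand was used. Reads in no gene were 13.8% to 17.3% and ambiguous reads 0.602% to 0.726% of the reads in genes, in none or ambiguous; these and reads listed as aligned more than once were left out.

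Counts were tested with edgeR 4.0.16 (R 4.3.3, quasi-likelihood, legacy and robust options off) after trimmed mean of M values scaling and edgeR's filter (minimum count 10, minimum total 15), in a model of genotype alone. P-values were two-sided and adjusted by the Benjamini-Hochberg method over 14788 genes. The script was tested on simulated data. Exon lengths and mm9 positions come from GENCODE M1. DESeq2 1.42.0, limma 3.58.1 (voom), other scalings and filters, a replicate block and single libraries left out were alternatives. The members, gene lists and tests were chosen with earlier results of these data known. All members were described, with full values for called genes, those with an unadjusted p below 0.05, Gja1, Ocln, Tjp1, Cdh2, Ctnnb1 and the most abundant of each class.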

Additional observations from a re-analysis of the deposited data

How the results depend on the processing

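Of the members, Cldn11 alone was called in all 14 other settings. Members called lower numbered 2 and called higher 1 in each setting that kept all 4 libraries, DESeq2 and limma voom included. With 1 library left out they ranged from 1 to 2 lower and 0 to 4 higher, and the members' median log2 fold change from -0.05 to 0.08, against 0.02. Other junction genes called were 6 higher and 1 lower, and with 1 library left out 1 to 11 and 0 to 3. They were 3 higher by limma voom and 3 higher and 0 lower with no filter on low counts. Calls over all genes, 839, were 500 with no filter and 74 to 1295 with 1 library left out.

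Signs turned in 25 of 546 member values, none of a gene called with all 4 libraries, and the cause was not tested. With 1 library left out, the log2 fold changes of these genes ranged as follows: Cldn1 -0.16 to 0.18, Cldn3 -0.58 to 0.08, Cldn7 -0.71 to 0.10, Cldn10 -0.10 to 1.40, Cldn23 -0.95 to 0.26, Tjp1 -0.05 to 0.30, Tjp3 -0.75 to 0.07, Cxadr -0.17 to 0.13, Gja1 -0.08 to 0.00, Gja5 -0.49 to 0.03, Gjc1 -0.03 to 0.15, Cdh1 -0.63 to 0.08, Cdh3 -0.09 to 0.43, Mllt4 -0.02 to 0.17, Pvrl2 -0.10 to 0.13, Espn -0.25 to 0.51, Vcl -0.07 to 0.08. Cxadr was 0.00 with median-ratio and 0.01 with upper-quartile factors, and Vcl -0.00 with library size alone.

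The groups share replicate numbers, but same-numbered libraries did not deviate together (correlation -0.0314). With the replicate number as a block, 2 members were called lower and 1 higher, 4 other junction genes higher and 1 lower, and 853 genes in all; the calls of Magi3 (adjusted p = 0.0603 by edgeR) and Ppl (adjusted p = 0.0522 by edgeR) were lost. With 2 libraries a group and few counts for Cldn10, Cldn23, Tjp3 and Gjb2, small differences were not detectable at this depth.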
